A study of Mus musculus with 6 samples.

Results

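The 10 genes described here mark the identity of adipocytes. They are *Cited1*, *Dio2*, *Tbx1*, *Tmem26*, *P2rx5*, *Slc36a2*, *Slc7a10*, *Ybx2*, *Tbx15* and *Tcf21*, and they were picked by gene name from 56884 gene IDs, with no measured value in the rule. RNA was sequenced from a mouse cell line made from the stromal vascular fraction (SVF) of subcutaneous white adipose tissue (scWAT), which is the fraction that holds adipocyte precursors. One group of 3 libraries came from cells with the PPARγ2 mutant K382Q and the other group of 3 from cells with the mutant K382R, all collected on day 2 of beige differentiation. PPARγ2 is the nuclear receptor that drives adipocyte formation, glutamine at K382 resembles acetylated lysine and arginine resembles deacetylated lysine, so the comparison asks how the acetylation state of this residue relates to the adipocyte programme.

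Both groups carried an HA-tagged mouse PPARγ2 from a puromycin-selected retroviral vector. The parental cells keep their own *Pparg*. Cells without a mutant were not analysed here, so each difference is one between K382Q and K382R and not a change from unmodified cells. All 6 cultures received the same induction medium, with isobutylmethylxanthine, indomethacin, dexamethasone, insulin, triiodothyronine and the PPARγ ligand rosiglitazone. The labels call the replicates biological but do not say what was repeated, so the p-values measure the spread between these libraries of the same cell lines.

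White adipocytes store lipid, whereas brown and beige adipocytes burn it and release the energy as heat. Beige adipocytes arise within white depots and share the thermogenic genes of brown adipocytes, but they come from other precursors and carry some markers of their own. *Cited1*, *Tbx1* and *Tmem26* are used as beige markers. *Slc36a2* (also called *Pat2*) and *P2rx5* encode surface proteins of brown and beige adipocytes. *Dio2* makes active thyroid hormone within the cell, *Ybx2* encodes an RNA-binding protein of thermogenic adipocytes, *Tbx15* encodes a T-box transcription factor of brown and subcutaneous adipocytes, and *Slc7a10* and *Tcf21* mark white adipocytes and their precursors.

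The deposited values are TPM, a transcript abundance per unit of length that sums to the same total in each library, and coverage, which is the mean read depth per base over the exons of a gene and is not normalized. The length of sequence aligned, which follows from dividing coverage by FPKM, had a range of 5.95 to 7.5 Gb in K382Q and 6.53 to 8.15 Gb in K382R. The limma test ran on log2(TPM + 0.5) for 15426 genes that reached a TPM of 0.5 in 3 or more of the 6 libraries, with Benjamini-Hochberg adjustment across all of these genes. Called genes had an adjusted p below 0.05, and a DEG in addition differed by more than 2-fold. The pseudocount of 0.5 draws the fold changes of low genes towards 0. With 3 libraries in each group, an exact two-sided permutation test of a single gene cannot go below p = 0.1.

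Of the 10 markers, 6 had a TPM of at least 0.5 in all 6 libraries and were tested. *Cited1*, *Slc36a2* and *Ybx2* were higher in K382Q and *Tbx15* was lower, whereas *P2rx5* and *Tbx1* did not pass the test. Over all tested genes, 48.1% were called, 11.1% as higher and 36.9% as lower in K382Q. No marker was a DEG, against 3.88% of all tested genes. The median log2 fold change was 0.51 over the 6 tested markers and -0.14 over all tested genes. Without the filter on low values it was 0.11 over 9 markers, which leaves out *Tcf21* alone. Among the 6 tested markers, 4 also had an unadjusted p under 0.05, against 54.2% of all tested genes. The mutants did not overlap for 5 of them, against 57.0% of all tested genes, with K382Q above for 4 (background 14.1%) and below for 1 (background 42.8%). Calls were thus common in these libraries. The excess of lower calls moved with the scaling. It was also seen with the deposited FPKM (2315 genes higher and 4058 lower of 13419), whereas with median-ratio scaling of TPM 19.8% of tested genes were higher and 20.4% lower. On that scale too 3 of the 4 called markers were higher. In bulk RNA, more cells of a type and more RNA per cell cannot be told apart. In the plot of TPM by library, the points of *Cited1*, *Slc36a2*, *Ybx2*, *P2rx5* and *Tbx15* separate the 2 mutants.

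**Figure D1:**
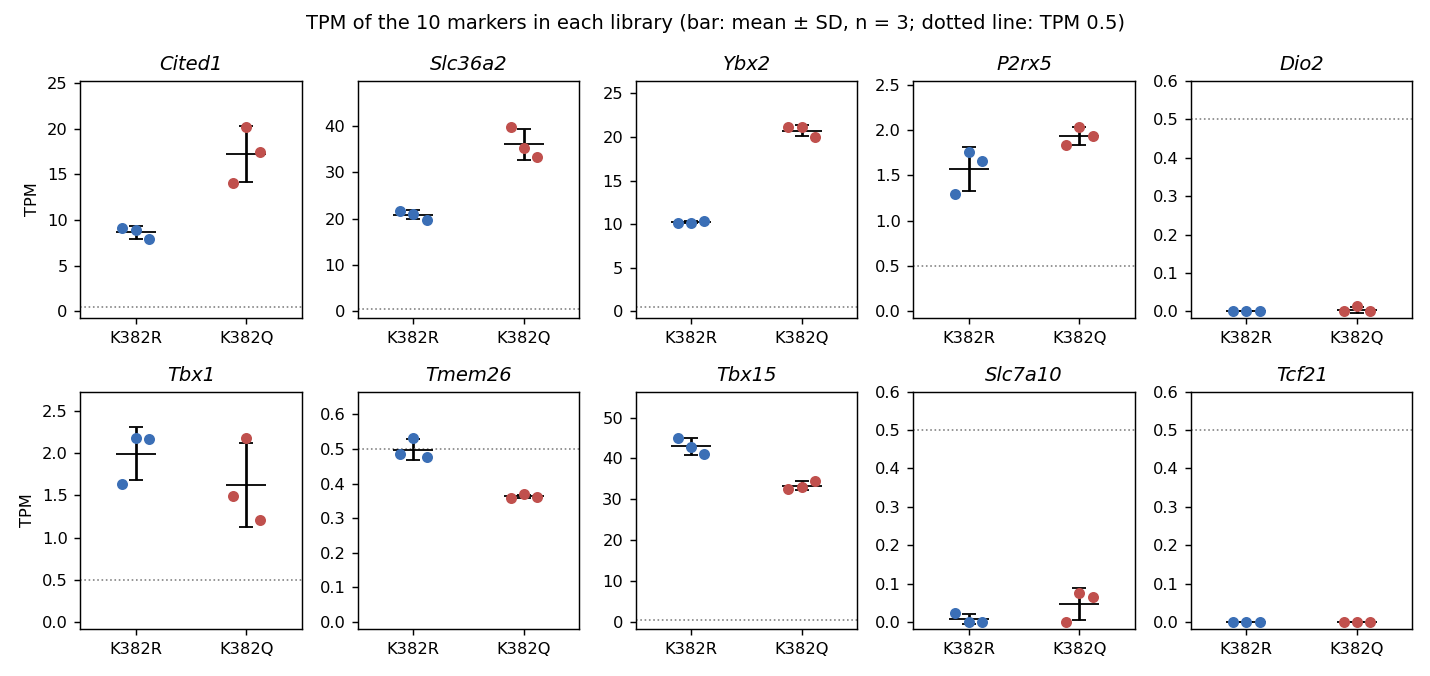
TPM of the 10 markers in each library (points), with the mean and SD of 3 libraries per mutant (bars) and a dotted line at TPM 0.5. The K382Q points of *Ybx2* sit between 20.0 and 21.1 and the K382R points between 10.2 and 10.4, whereas *Dio2*, *Slc7a10* and *Tcf21* stay near 0.

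Primers for 4 of the markers are in the primer list of the study, and they are shown because these oligonucleotides define what a qPCR of the same genes reads. Each pair was searched in the transcripts of GENCODE mouse release 39, and none matched a transcript of another gene. Forward and reverse primers are given 5′ to 3′, with no part in capitals because they were matched over their whole length.
Cited1 forward: ccaaccttggagtgaaggatcgca
Cited1 reverse: ggcagtaggagagcctattggagatgt
Slc36a2 forward: gtgccaagaagctgcagag
Slc36a2 reverse: tgttgcctttgaccagatga
P2rx5 forward: ctgcagctcaccatcctgt
P2rx5 reverse: cactctgcagggaagtgtc
Ybx2 forward: agcccatagagggctctgatg
Ybx2 reverse: aggccgggagccatcagt
The pair for *Cited1* lay in 8 of its 9 annotated transcripts and spans 134 bases of the canonical one. The pairs for *Slc36a2*, *P2rx5* and *Ybx2* lay in 22 of 24, 11 of 15 and 6 of 9 transcripts. They span 120, 88 and 209 bases. Since the study chose these 4 genes for its own primer list, their direction here is not independent evidence for a browning response.

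*Cited1* encodes a transcriptional co-regulator without a DNA-binding domain of its own, and it is among the markers most often used to tell beige from brown adipocytes. The gene (ENSMUSG00000051159.17) lies on the minus strand of GRCm39 at chrX:101290987-101295787. Its TPM was 14.0, 20.2 and 17.5 in K382Q and 9.16, 8.94 and 7.87 in K382R. All K382Q libraries lay above all K382R libraries, and K382Q was the more variable group, with an SD of 17.9% of the mean against 7.99%. The log2 fold change was 0.94 (SE 0.13, adjusted p = 0.00063 in limma), and the log2 ratio of the mean TPM without a pseudocount was 0.99. Its coverage was 17.2, 30.3 and 20.6 in K382Q and 14.0, 13.8 and 9.73 in K382R.

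*Slc36a2* encodes a proton-coupled amino acid transporter at the cell surface. The gene (ENSMUSG00000020264.6) lies on the minus strand at chr11:55049296-55075903. Its TPM was 39.8, 35.2 and 33.2 in K382Q and 21.7, 21.0 and 19.8 in K382R, so the groups were far apart. The log2 fold change was 0.78 (SE 0.07, adjusted p = 9.21e-05 in limma). The coverage of 70.5, 78.7 and 59.5 in K382Q and 47.7, 48.8 and 36.1 in K382R was the highest of the 10 markers in every library.

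*Ybx2* encodes a Y-box protein that binds and stabilizes mRNA, known from germ cells and from thermogenic fat. The gene (ENSMUSG00000018554.14) lies on the plus strand at chr11:69826622-69832431. Its TPM was 21.1, 21.1 and 20.0 in K382Q and 10.2, 10.2 and 10.4 in K382R. Replicates differed little, with an SD of 3.19% of the mean in K382Q and 1.27% in K382R. The log2 fold change was 0.98 (SE 0.05, adjusted p = 6.35e-06 in limma), which was the smallest p-value among the markers. The log2 ratio of the mean TPM was 1.02, so whether *Ybx2* counts as a DEG turns on the pseudocount. Coverage was 35.0, 44.9 and 30.6 in K382Q and 20.0, 21.7 and 17.0 in K382R. Because *Ybx2* is also a germ cell gene, germ cell markers were read beside it. *Ddx4*, the only one of 4 that was tested, had a log2 fold change of 0.01 (adjusted p = 0.982 in limma), and the summed TPM of the 4 was 0.763 to 1.28 in K382Q and 0.579 to 0.906 in K382R, with overlap.

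*P2rx5* encodes an ATP-gated ion channel of the plasma membrane. The gene (ENSMUSG00000005950.15) lies on the plus strand at chr11:73051247-73063511. Its TPM was low, with 1.83, 2.03 and 1.93 in K382Q and 1.29, 1.76 and 1.66 in K382R. All K382Q libraries lay above all K382R libraries, but the gap between the nearest libraries was small. The log2 fold change of 0.24 (SE 0.14) did not pass the test (adjusted p = 0.209 in limma), and it was 0.14 without the first K382R library. Coverage was 4.51, 6.25 and 4.72 in K382Q and 3.90, 5.61 and 4.18 in K382R. After median-ratio scaling, the log2 fold change was 0.36 with TPM and did not pass (adjusted p = 0.0812 in limma). With coverage on the same scaling it was 0.42 and passed (adjusted p = 0.0423 in limma). The size thus moved with the scaling, and at this scaling the call depended on the values used.

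The 2 T-box markers differed. *Tbx15* (ENSMUSG00000027868.12), on the plus strand at chr3:99147697-99261575, had a TPM of 32.4, 33.0 and 34.6 in K382Q and 45.1, 42.7 and 41.1 in K382R, with no overlap. Its log2 fold change was -0.36 (SE 0.05, adjusted p = 0.000585 in limma), and it was the only marker called as lower. *Tbx1* (ENSMUSG00000009097.11), on the minus strand at chr16:18399729-18409421, had a TPM of 1.49, 2.17 and 1.20 in K382Q and 1.63, 2.18 and 2.16 in K382R. These values overlapped, and *Tbx1* was the most variable of the tested markers, with an SD of 30.7% of the mean in K382Q. Its log2 fold change was -0.25 (SE 0.20, adjusted p = 0.343 in limma). Single libraries set much of this value, which was -0.43 without the second K382Q library and -0.10 without the third, and it was -0.05 with coverage after median-ratio scaling. None of these passed the test. The coverage of *Tbx1* was 2.61, 4.77 and 2.09 in K382Q and 3.51, 4.94 and 3.08 in K382R.

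The TPM and the coverage of *Tbx15* gave it different ranks. By TPM it was the highest marker in K382R, at 42.9 ± 2.00 (SD, n = 3), above *Slc36a2* at 20.8 ± 1.00. Its coverage was only 4.87, 6.20 and 5.16 in K382Q and 8.30, 8.31 and 6.32 in K382R. Per Gb of aligned sequence the mean coverage of *Tbx15* in K382R was 1.02, below 5.88 for *Slc36a2*, 2.61 for *Ybx2* and 1.66 for *Cited1*. The deposited FPKM of *Tbx15* was 16.4 times its gene-wide coverage per aligned Gb, and 98.0% of tested genes had a lower ratio (median 1.44). The deposited FPKM and TPM are summed over the transcripts of a gene, while coverage is averaged over its exons. GENCODE release 39 gives *Tbx15* transcripts of 333 to 4039 bases, and the shortest starts at the gene start in the deposited tables. Levels of single transcripts were not analysed here. With coverage after median-ratio scaling, the log2 fold change of *Tbx15* was -0.20 and did not pass (adjusted p = 0.0946 in limma). On these values 41.5% of tested genes were called, 20.3% as higher and 21.2% as lower, and 4.32% were DEGs. With the same scaling, TPM gave nearly the same log2 fold change of -0.21 with a smaller error (SE 0.05 against 0.08) and passed (adjusted p = 0.0136 in limma), so the size of the *Tbx15* difference moved with the scaling and its call with the values used.

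**Figure D2:**
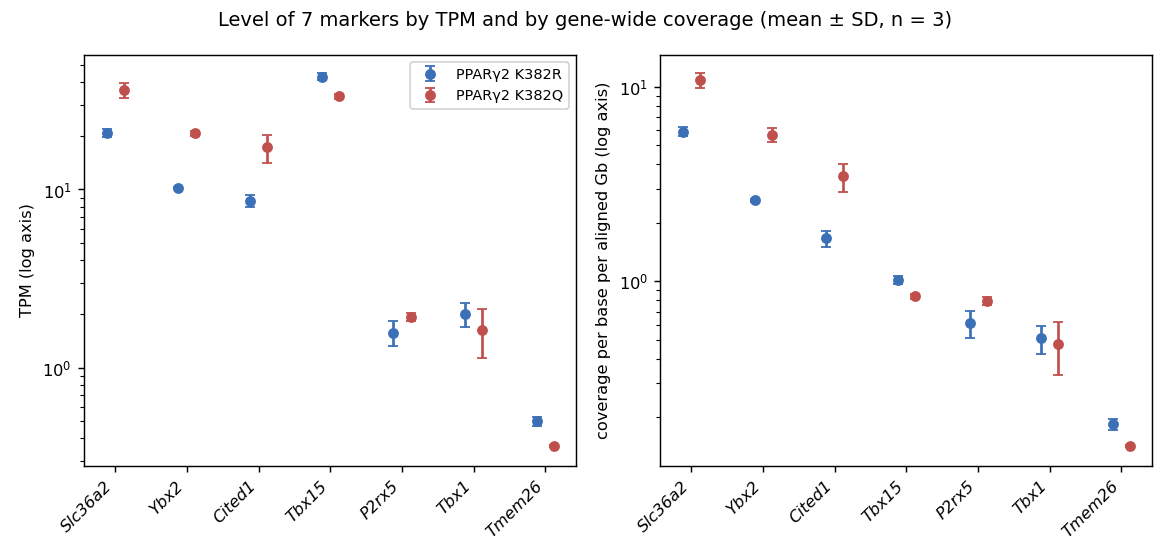
Mean TPM (left) and mean coverage per aligned Gb (right) of 7 markers on log axes, with the SD of 3 libraries per mutant. *Tbx15* stands at 42.9 TPM in K382R, above the others, but below *Slc36a2*, *Ybx2* and *Cited1* by coverage, at 1.02.

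By coverage, *Slc36a2* was followed by *Ybx2* and *Cited1* in both mutants, with no overlap between neighbours, and *Tbx15*, *P2rx5*, *Tbx1* and *Tmem26* came after them. By TPM in K382Q, *Slc36a2* (36.1 ± 3.36, SD, n = 3) overlapped with *Tbx15* (33.3 ± 1.11), and *Ybx2* (20.7 ± 0.661) overlapped with *Cited1* (17.2 ± 3.09). *P2rx5* and *Tbx1* overlapped in both mutants.

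The remaining 4 markers were below the filter. *Tmem26*, which encodes a membrane protein used as a beige marker (ENSMUSG00000060044.9, plus strand, chr10:68559476-68618480), had a TPM of 0.359, 0.369 and 0.361 in K382Q and 0.485, 0.533 and 0.477 in K382R. Only 1 library reached 0.5, yet the groups did not overlap and K382Q was the lower one (exact two-sided permutation test, p = 0.1, the smallest possible). Of the 14096 untested genes with a TPM above 0 in any library, 5.84% had all K382Q libraries below all K382R libraries. Among the tested genes this share was 42.8%, and *Tmem26* lay close to the filter. In a fit without the filter, its log2 fold change was -0.21 and did not pass (adjusted p = 0.186 in limma), where 22.2% of 29522 genes were called. The values of *Tmem26* thus lay in the opposite order to those of *Cited1*, although both are beige markers.

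*Slc7a10* encodes a neutral amino acid transporter of the white adipocyte surface (ENSMUSG00000030495.13, plus strand, chr7:34885810-34900539). Its TPM was 0, 0.0753 and 0.0657 in K382Q and 0.0229, 0 and 0 in K382R, so both groups contain libraries listed at 0 and the values overlap. *Lrp3*, on the opposite strand, overlaps *Slc7a10* and had a mean TPM of 4.38. The sources used here do not say whether strand was used in counting, so the few reads at *Slc7a10* cannot be told apart from reads of *Lrp3*. *Tcf21*, which encodes a basic helix-loop-helix factor of white preadipocytes (ENSMUSG00000045680.9, minus strand, chr10:22693180-22696073), was listed at 0 in all 6 libraries. Both white markers among the 10 were therefore at or near 0 in both mutants.

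*Dio2* encodes the type 2 deiodinase, which converts thyroxine into triiodothyronine and is a classical cAMP-induced gene of brown fat (ENSMUSG00000007682.9, minus strand, chr12:90691326-90705812). It was listed at 0 in 5 libraries, and in the second K382Q library it had a TPM of 0.0131 and a coverage of 0.0404. None of 11 genes that every cell uses, such as *Actb* and *Tbp*, was listed at 0 in any library. *Dio2* was thus hardly detected on day 2, in a medium that contained triiodothyronine and a phosphodiesterase inhibitor.

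Promoter sequence is shown for *Dio2*, the hardly detected marker, and for *Cited1*, a marker that rose. Each run is the 250 bases before the canonical transcript start in GENCODE release 39 (GRCm39), read 5′ to 3′ on the minus strand, from chr12:90705820-90706069 and chrX:101295804-101296053. Capitals mark TGACGTCA, the full cAMP response element.
Dio2: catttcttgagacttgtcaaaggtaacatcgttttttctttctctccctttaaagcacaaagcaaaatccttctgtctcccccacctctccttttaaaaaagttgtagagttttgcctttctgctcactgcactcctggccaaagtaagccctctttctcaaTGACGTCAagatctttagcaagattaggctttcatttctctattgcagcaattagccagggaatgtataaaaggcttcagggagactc
Cited1: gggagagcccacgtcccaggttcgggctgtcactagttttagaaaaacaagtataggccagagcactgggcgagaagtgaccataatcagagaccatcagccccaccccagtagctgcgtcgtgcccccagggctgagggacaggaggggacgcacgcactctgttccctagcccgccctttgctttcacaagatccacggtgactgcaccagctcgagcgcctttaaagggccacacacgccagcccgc
The windows of all 10 markers were searched on both strands for 4 motifs. TGACGTCA was found in *Dio2* alone, with its first base 88 bases before the start, and in 1.69% of 21770 promoters of protein-coding genes. TGACG, the core of this element, was found in *Dio2* alone, within the same element, and in 18.0% of all promoters. AGGTCA, the hexamer that nuclear receptors bind, was in none of the 10 windows and in 13.1% of all promoters. The exact DR1 element, a repeat of this hexamer with 1 base between the copies that PPAR binds with RXR, was in none of the 10 and in 0.0367% of all promoters. A lack of these letters in so short a window says nothing about binding elsewhere. The element before *Dio2* stands beside a gene listed at 0 in 5 of 6 libraries, and a match is a description of sequence only.

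Scaling bore on size more than on direction. With median-ratio scaling, the median over all tested genes moved from -0.14 to 0.0032 on the log2 scale, and 40.3% were called. On that scale the log2 fold change was 1.09 for *Cited1*, 1.13 for *Ybx2* and 0.92 for *Slc36a2*, and *Cited1* and *Ybx2* became DEGs (3.78% of all tested genes). *Tbx15* stayed lower, as given above. In the plot of the tested markers by value and scaling, *Cited1*, *Ybx2* and *Slc36a2* are above 0 and called under every setting drawn.

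**Figure D3:**
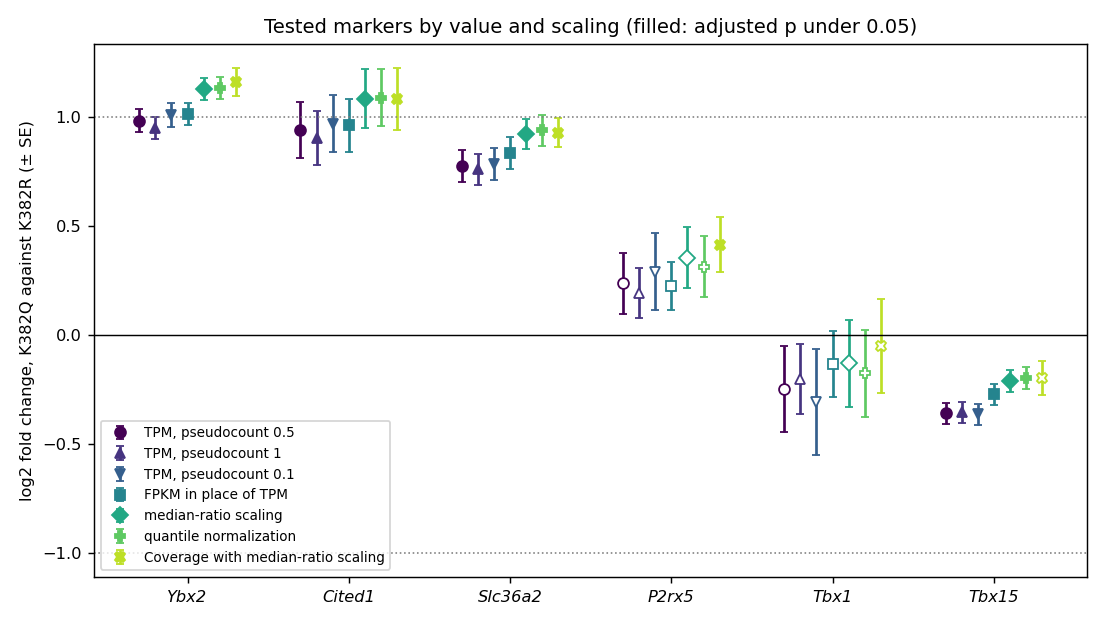
Log2 fold change of the 6 tested markers, K382Q against K382R, with its SE, for 7 choices of value and scaling. Filled symbols passed an adjusted p of 0.05 and dotted lines mark a fold change of 2. *Ybx2* runs from 0.95 to 1.16, and the call changes for *P2rx5* and *Tbx15* with coverage.

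Other beige markers did not move as one group. Of 11 on the list, 7 were tested, and 2 were higher and 4 lower in K382Q, beside 11.1% and 36.9% of all tested genes. Their median log2 fold change was -0.41 beside -0.14, and with median-ratio scaling 3 were higher and 4 lower with a median of -0.26, beside 19.8% and 20.4%. *Slc27a1*, a fatty acid transport protein, rose by 2.09, and *Nrg4*, a secreted growth factor, rose by 0.54. *Sp100*, a nuclear body protein that responds to interferon, fell by 1.21, and *Hoxc9*, a homeobox gene that marks the subcutaneous position, fell by 0.51 (limma log2 fold changes). On the brown lineage list, 4 of 12 genes were tested, with 1 higher and 2 lower, beside 11.1% and 36.9% of all tested genes. *Zic1*, *Meox1*, *Meox2* and *Myf5* were listed at 0 in all libraries. *Oplah*, an enzyme of the glutathione cycle, was higher (0.63), while the transcription factors *Lhx8* (-1.12) and *Ebf3* (-0.34) were lower, though *Ebf3* was at -0.19 and not called with median-ratio scaling. *Hoxc9* was well detected, with a TPM of 16.8 to 18.9 in K382Q and 25.3 to 25.9 in K382R.

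Most thermogenic genes were higher. Of 16 listed, 14 were tested, 12 were higher and 1 was lower in K382Q, beside 11.1% and 36.9% of all tested genes. The median log2 fold change was 1.13 beside -0.14. The 12 include *Ucp1*, which reached a TPM of 0.5 in K382Q alone and so passed the filter only through its higher group. With a filter at a TPM of 1, which left *Ucp1* out, 11 of 13 tested genes were higher, beside 1663 of all 13866. The 11 still include *Cidea* and *Adrb3*, which reached a TPM of 1 in K382Q alone. Their K382R values were 0.108 to 0.751 and 0.289 to 0.645, so at that filter they too passed only through their higher group. On the log2 scale, *Cidea*, a lipid droplet protein, rose by 2.49, *Cox7a1*, a cytochrome c oxidase subunit, by 2.25, *Ucp1*, the uncoupling protein that makes heat, by 1.28 and *Ppargc1a*, a co-activator of mitochondrial genes, by 1.17. Taken straight from mean TPM, the log2 ratio was 3.41 for *Ucp1*, 3.39 for *Cidea*, 2.25 for *Cox7a1* and 1.38 for *Ppargc1a*, so the pseudocount sets much of the value for the low genes *Ucp1* and *Cidea*. The limma log2 fold change of *Ucp1* ran from 0.82 to 2.50 over the 14 alternatives that tested it, and *Ucp1* was called in each. Most of these fits kept the filter that *Ucp1* passed only through K382Q, so the calls are no separate support for its direction. *Zfp516*, a transcription factor of brown fat, fell by 0.37, but by 0.21 with no call (adjusted p = 0.0626 in limma) with coverage after median-ratio scaling. *Ucp1* itself was low, at a TPM of 0.816 to 0.980 in K382Q and 0.044 to 0.162 in K382R, so *Cited1*, *Slc36a2* and *Ybx2* all stood above it in TPM. Many of the thermogenic genes are among those the study reads by qPCR, so this list too is not independent evidence of its direction.

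White markers lay near the background. Of 13 listed, 11 were tested, with 2 higher and 4 lower, beside 11.1% and 36.9% of all tested genes, and their median log2 fold change was -0.18 beside -0.14. With median-ratio scaling that median was -0.03. On the log2 scale, *Retn*, the adipokine resistin, rose by 0.33, *Igf1*, a growth factor, fell by 0.73 and *Agt*, angiotensinogen, fell by 0.52. The call of *Igf1* was lost without the filter (adjusted p = 0.0584), without the third K382Q library (0.0508) and without the third K382R library (0.0539, all limma), and with FPKM it fell by 0.48. *Psat1*, an enzyme of serine synthesis, had a log2 fold change of 0.08 that did not keep its sign with quantile normalization. *Lep*, the adipokine leptin, was listed at 0 in every library. Of 11 general adipocyte genes, 3 were higher and 4 lower, beside 11.1% and 36.9% of all tested genes, and their median was -0.05 beside -0.14. With median-ratio scaling 6 were higher and 3 lower with a median of 0.10, beside 19.8% and 20.4% of all tested genes. *Cd36*, a fatty acid receptor, rose by 0.43 and *Fabp4*, a fatty acid binding protein, rose by 0.34 in TPM, although quantile normalization lowered *Cd36* to 0.22 and gave *Fabp4* the same value in both mutants. *Adipoq*, the adipokine adiponectin, fell by 1.28 and *Cebpa*, a transcription factor of adipogenesis, fell by 0.82. *Pparg*, whose values hold reads of the overexpressed mutants as well as of the cells' own gene, fell by 0.43, or by 0.28 with median-ratio scaling.

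Of 36 relatives and partners of the markers, 21 were tested, with 2 higher and 12 lower, beside 11.1% and 36.9% of all tested genes. Their median log2 fold change was -0.31, which shrank to -0.16 with median-ratio scaling of TPM and to -0.08 with that of coverage, and on both of these 3 were higher and 10 lower. On these scales 19.8% and 20.3% of all tested genes were higher and 20.4% and 21.2% lower. On the log2 scale, *P2rx3*, another ATP-gated channel, rose by 0.81 and *P2rx1* fell by 1.01 (by 0.62 with FPKM), with *P2rx5* between them at 0.24. *Thra*, a thyroid hormone receptor, rose by 0.22, or by 0.37 with median-ratio scaling, beside the hardly detected *Dio2*. *Slc7a8*, an amino acid transporter of the same family as *Slc7a10*, fell by 1.33. The T-box gene *Tbx18* fell by 0.94 and the Y-box gene *Ybx1* fell by 0.34 (log2 fold changes of -0.57 to -0.19 over the scalings), so the rise of *Ybx2* was not shared by that relative. *Tbx18* and *Ybx1* were singled out after their values were seen.

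**Figure D4:**
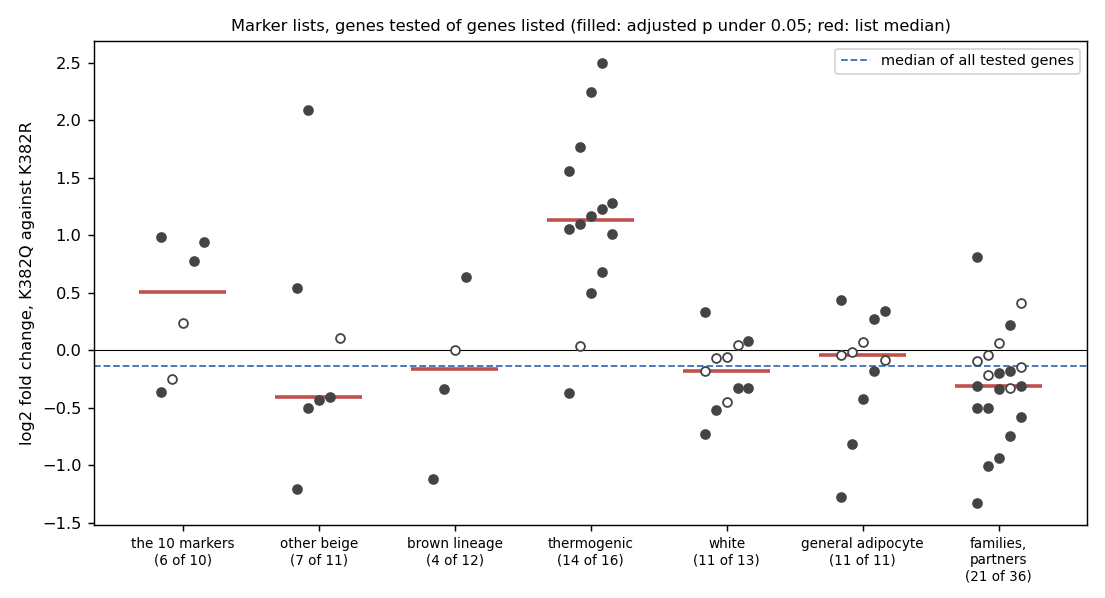
Log2 fold change of each tested gene by list (filled points passed an adjusted p of 0.05), with the list median in red and the median of all tested genes as a dashed line. The 6 tested markers have a median of 0.51 (0.11 over 9 without the filter), between the thermogenic genes at 1.13 and the general adipocyte genes at -0.05, whose median is 0.10 with median-ratio scaling.

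Markers of stromal precursors were lower in K382Q, in 7 of 8 tested genes of 9 listed, beside 36.9% of all tested genes, and in 6 of 8 beside 20.4% with median-ratio scaling. The 7 include *Eng*, which reached a TPM of 0.5 in K382R alone and so passed the filter only through its higher group. With a filter at a TPM of 1, which left *Eng* out, 6 of 7 tested genes were lower, beside 5631 of all 13866. The summed TPM of the precursor markers was 696 to 759 in K382Q and 1080 to 1130 in K382R. They went in the direction of *Tbx15* and against *Cited1*, *Slc36a2* and *Ybx2*, and their part in these results was not tested. Leukocyte markers had a summed TPM of 3.54 to 4.69 in K382Q and 3.46 to 5.18 in K382R, nearly all of it *Cd68*, a lysosomal protein of macrophages, at 3.44 to 4.66 and 3.17 to 5.10. *Ptprc*, which encodes the pan-leukocyte protein CD45, was at 0 in all but 1 library, and *Adgre1* and *Cd3e* were listed at 0 throughout. Endothelial markers summed to 1.63 to 2.25 and 1.69 to 1.82, muscle markers to 7.06 to 8.42 and 7.84 to 9.33, and mural markers to 4.68 to 6.44 and 4.82 to 5.47, with overlap in each. The muscle sum holds opposite calls, as *Des* was higher (0.57, adjusted p = 0.00537 in limma) and *Acta1* lower (-0.94, adjusted p = 0.000836), while *Myod1* and *Myog* were listed at 0. Mesothelial markers summed to 373.9 to 398.2 in K382Q and 415.7 to 427.7 in K382R, with no overlap, and nearly all of it was *Krt19*. *Krt19* was called as lower (-0.12, adjusted p = 0.0157 in limma), but its log2 fold change turned to 0.03 under other scaling. *Msln* was at a TPM of 0.115 to 0.339 in K382Q and 1.42 to 2.16 in K382R and was called as lower (-1.56, adjusted p = 0.000669 in limma). Over the scalings its value ran from -2.02 to -0.94, and it was no DEG with FPKM. *Msln* reached a TPM of 0.5 in K382R alone, so it passed the filter only through its higher group. *Wt1* was listed at 0, and the part of these genes was not tested. Astrocyte markers, read because *Slc7a10* and *Dio2* are also used by astrocytes, summed to 21.2 to 24.3 in K382Q and 17.2 to 19.8 in K382R, with no overlap. *Aldh1l1* carried the gap and was called as higher (0.47, adjusted p = 0.00443 in limma), *Gfap* (-0.38) and *Slc1a3* (-0.03) were not called, *Aqp4* was listed at 0, and the part of these genes was not tested.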

How the data were processed

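The authors aligned the reads to GRCm39 with HISAT2 and quantified genes with StringTie, and they deposited 1 table per library with coverage, FPKM and TPM values. The annotation release is not given in the sources used here, and GENCODE mouse release 39 holds 99.0% of the gene IDs. Counts were not analysed here. No libraries were duplicates (at most 0.058% of expressed genes had identical values). The 10 markers and all gene lists were chosen with earlier results of these data known. The test was limma 3.58.1 in R 4.3.3 with an intensity trend on log2(TPM + 0.5), and edgeR, planned for counts, was not used. Named genes are the 10 markers, *Pparg*, *Ucp1*, *Ppargc1a*, *Hoxc9*, *Zic1* and *Meox1*, the 2 called genes with the largest change in each direction of each list, and genes said to be picked later. Genes most like a marker were to be named for DEGs, and no marker was one. Alternatives were other pseudocounts (1 and 0.1), no filter, a TPM of at least 1, FPKM values, median-ratio scaling of TPM or of coverage, quantile normalization, no trend, a replicate block and each library left out. The test was checked on simulated data, and the outcome of that check is not given here. Other steps used Python 3.11.15 and samtools 1.23.1.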

Additional observations from a re-analysis of the deposited data

How the results depend on the processing

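*Cited1*, *Slc36a2* and *Ybx2* were called as higher under all 16 alternatives. *Tbx15* was called as lower except with coverage after median-ratio scaling (-0.20, adjusted p = 0.0946 in limma), where *P2rx5* passed (0.42, adjusted p = 0.0423), so that 4 markers were called under every alternative, but not the same 4. Calls were common under these alternatives, with 6195 to 7426 of all tested genes called. Without the filter the 4 were of 9 markers, beside 22.2% of 29522 genes. DEGs among the markers numbered 1 with a pseudocount of 0.1 and 1 with FPKM (*Ybx2*), and 2 with median-ratio scaling, 2 with coverage and 2 with quantile normalization (*Cited1* and *Ybx2*). Over all 15426 tested genes they numbered 889 with a pseudocount of 0.1, 583 with median-ratio scaling, 666 with coverage and 583 with quantile normalization. With 1 library left out, 0 to 1 marker was a DEG, beside 611 to 646 of all tested genes. It was *Cited1* without the first K382Q library and *Ybx2* without the third. With FPKM, 377 of 13419 tested genes were DEGs, instead of 599 of 15426. *Psat1* reversed to -0.0065 with quantile normalization, and *Ebf3*, *Igf1*, *Fabp4* and *Zfp516* lost their calls under at least 1 alternative. The replicate numbers did not pair the libraries, since correlations of same-numbered deviations were -0.018, 0.051 and 0.022, and a fit with the replicate number as a block called 6987 genes and the same 4 markers. At these depths, an absence of *Dio2*, *Slc7a10* and *Tcf21* transcripts is not shown. Values per transcript were not analysed here.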
